A study of Mus musculus with 16 samples.

Results

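Bcl6 and Prdm1 encode a pair of zinc finger repressors with opposing roles in T cells, and their chromatin was followed here through T helper 2 (Th2) culture, with and without the transcription factor Bcl11b. The members are all enriched islands in chr16:23950001-24320000, which holds Bcl6 and the enhancers upstream of it, and in chr10:44120001-44300000, which holds Prdm1, both on the mouse build mm9. The Bcl6 window held 164 islands over the 16 libraries, 70 of them for acetylation of histone H3 at lysine 27 (H3K27ac) and 94 for DNase. The Prdm1 window held 136, made up of 57 H3K27ac and 79 DNase islands. Together these are 300 of the 469755 islands in all lists.

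The cells were CD4 T cells from C57BL/6 mice whose Bcl11b alleles were floxed and which carried CreERT2, a Cre recombinase that enters the nucleus when 4-hydroxytamoxifen (4-OHT) is given. Every group shared the floxed alleles and CreERT2. Early WT cells had 4 days of Th2 culture without 4-OHT, and early KO cells had the same 4 days with it. For late cells, 4 days of Th2 culture were followed by 1 day of rest with IL-2 and by a further 4 days of Th2 culture, in which late KO cells received 4-OHT and late WT cells did not. Loss of Bcl11b and exposure to 4-OHT therefore cannot be told apart. Per the labels the cells were naive when isolated, yet the same labels name a sort for high CD44, a marker of activated cells. ChIP-seq was used for H3K27ac, a mark of active regulatory elements, and DNase-seq for accessible chromatin, with 2 libraries per group and assay. Nothing in the labels says that these came from separate cultures or animals, so the p-values measure only the spread between libraries, which may be technical.

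Bcl6 is the repressor that directs follicular helper T cells and germinal centre B cells. Prdm1 encodes Blimp-1, which drives plasma cells and terminal effector T cells, and each of these repressors is known to silence the gene of the other. Bcl6 is also a known target of STAT factors downstream of cytokine receptors, and in lymphocytes a distant enhancer cluster lies between it and the neighbouring gene Lpp.

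In the RefSeq gene order, Bcl6 lies between the protein-coding genes Rtp2 and Lpp, and Prdm1 between Atg5 and Prep. Both genes are read from the minus strand, so positions upstream of each lie at higher coordinates. The promoter sequences below, the 250 bases before each RefSeq start on GRCm38.p6, are shown because their letters can be set against those that the STAT factors and the repressors themselves are known to bind. Capitals mark TTCNNNGAA, the core shared by many STAT and Bcl6 sites, and GNGAAAG, the core of Blimp-1 sites. Positions on GRCm38.p6 cannot be compared with the mm9 positions of the islands.
Bcl6, the first listed start, chr16:23988853-23989102, minus strand: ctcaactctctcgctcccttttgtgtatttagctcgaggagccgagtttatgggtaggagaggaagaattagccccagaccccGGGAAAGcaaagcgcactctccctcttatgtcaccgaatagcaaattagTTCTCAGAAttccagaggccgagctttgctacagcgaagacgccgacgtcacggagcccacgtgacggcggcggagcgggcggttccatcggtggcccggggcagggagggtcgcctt
Bcl6, the second listed start, chr16:23981284-23981533, minus strand: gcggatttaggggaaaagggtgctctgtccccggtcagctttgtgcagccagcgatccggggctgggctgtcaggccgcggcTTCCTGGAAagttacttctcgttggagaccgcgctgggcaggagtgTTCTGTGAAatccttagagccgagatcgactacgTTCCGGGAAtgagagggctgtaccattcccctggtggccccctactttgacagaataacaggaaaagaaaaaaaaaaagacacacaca
Prdm1, chr10:44458749-44458998, minus strand: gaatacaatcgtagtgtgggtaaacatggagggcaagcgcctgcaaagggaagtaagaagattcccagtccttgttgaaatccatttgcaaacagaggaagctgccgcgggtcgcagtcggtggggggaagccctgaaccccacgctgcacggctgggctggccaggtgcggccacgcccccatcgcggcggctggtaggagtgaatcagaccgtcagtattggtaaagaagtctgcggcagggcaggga

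The first Bcl6 promoter held TTCTCAGAA from -118 to -110 and GGGAAAG from -167 to -161, counted back from the start. The second held 3 matches to TTCNNNGAA, namely TTCCTGGAA from -168 to -160, TTCTGTGAA from -122 to -114 and TTCCGGGAA from -88 to -80. The Prdm1 promoter held neither core. Both strands were searched, and 7.0% of 32851 mouse promoters of this length held TTCNNNGAA and 19.4% the Blimp-1 core. The letters of a GATA core (GATAA) and a RUNX core (TGTGGT) were in none of the 3 sequences, against 22.6% and 14.0% of promoters. GC content was 58.4% and 54.8% at the Bcl6 starts and 59.2% at Prdm1. A match is a description of letters only, and its absence covers this stretch alone.

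The deposited lists give the limits and a score for each island but no read counts, so the depth is unknown and the measure used here is the length covered by islands. An absent island means only that the list does not hold one. H3K27ac lists held 26548 to 32112 islands covering 100.9 to 111.7 Mb. DNase lists were less even, with 17397 to 39736 islands over 25.9 to 66.8 Mb, and the 2 late KO lists were the shortest. Islands that overlapped or touched in any of the 8 lists of an assay were joined into regions, and each position is given as the distance in kb of the region's or bin's centre from the centre of the highest ranking H3K27ac region of its window, which is chr16:23980201-23992600 for Bcl6 and chr10:44159401-44181200 for Prdm1. The identity of the cells was not checked against marker genes, nor the deletion of Bcl11b, since no annotation of mm9 was used here.

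H3K27ac over the Bcl6 window was broad in early cells and shrank in late cells, while over the Prdm1 window it widened. Early WT libraries had 40.2 and 39.6 kb of the Bcl6 window covered and early KO libraries 39.4 and 42.0 kb. Late WT libraries had 19.2 and 22.6 kb, and late KO libraries 28.4 and 26.4 kb. All 4 late libraries lay below all 4 early ones, and both late KO libraries lay above both late WT libraries, as the plot of covered length by group shows. The share of genome stretches of this length separated in these ways was not counted, and the late KO difference was not called (limma, adjusted p = 0.05731).

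In the Prdm1 window the order of early and late was reversed. Early WT libraries had 37.0 and 37.4 kb covered, early KO libraries 42.4 and 42.2 kb, late WT libraries 50 and 47.0 kb, and late KO libraries 50.6 and 50.2 kb. Every late library was above every early one. The early groups did not overlap either, with both KO libraries above both WT libraries, though this difference was not called (limma, adjusted p = 0.4544). The late KO libraries also lay above the late WT libraries, as at Bcl6, but by little. That difference was not called (limma, adjusted p = 0.9729). Here too the share of stretches separated in these ways was not counted.

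**Figure D1:**
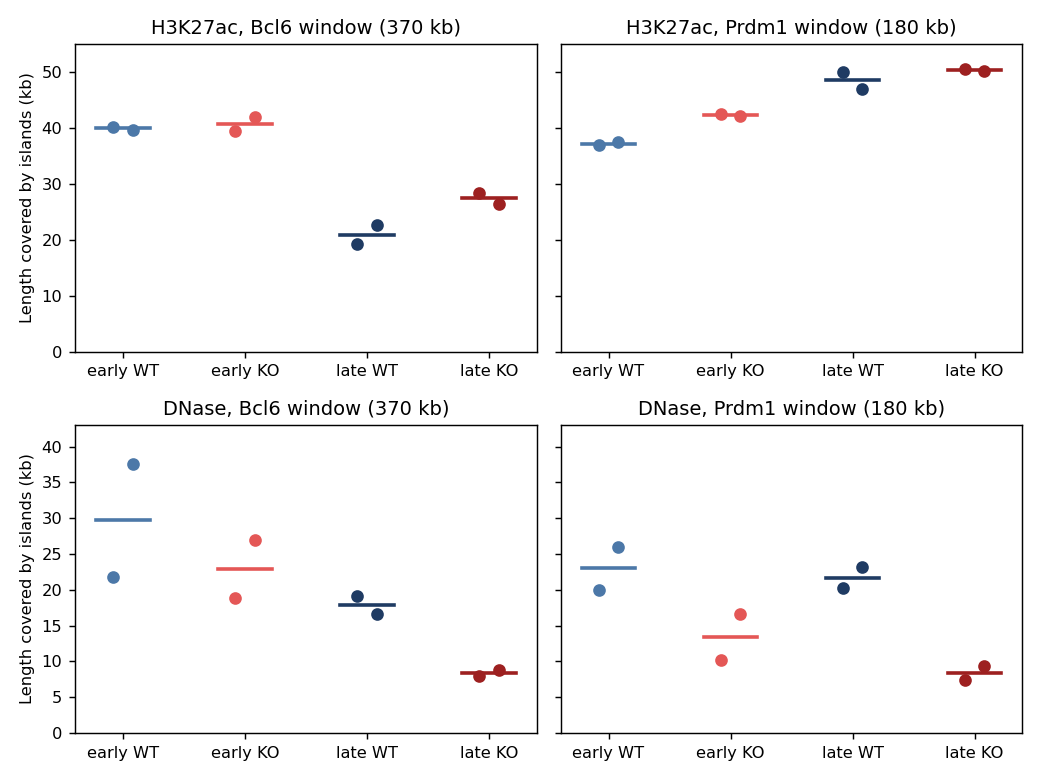
Length covered by islands (kb) in the Bcl6 window (370 kb, left) and the Prdm1 window (180 kb, right) for H3K27ac (top) and DNase (bottom); points are libraries, bars are group means of 2. H3K27ac falls from 39.9 kb in early WT to 20.9 kb in late WT at Bcl6 and rises from 37.2 to 48.5 kb at Prdm1, whereas the DNase panels show late KO as the lowest group at both.

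These differences were tested with limma on log2(kb + 0.5) over genome tiles of the length of each window, after each library was centred on the median tile covered in all 8 libraries, and p-values were adjusted by Benjamini-Hochberg over all tiles. From early to late WT the Bcl6 window fell by 0.906 ± 0.091 (SE) on this log2 scale (limma, adjusted p = 0.0003629), from 39.9 ± 0.42 to 20.9 ± 2.4 kb (SD, n = 2). Of 4281 tiles of that length, 37.4% passed an adjusted p of 0.05 in this comparison. In KO cells the window fell by 0.485 ± 0.091 (limma, adjusted p = 0.009504), from 40.7 ± 1.84 to 27.4 ± 1.41 kb (SD, n = 2), where 21.7% of tiles passed. Without early KO replicate 2 or late KO replicate 1 this second change missed the threshold (adjusted p = 0.06405 and 0.06284).

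The Prdm1 window rose by 0.417 ± 0.074 from early to late WT (limma, adjusted p = 0.006323), from 37.2 ± 0.28 to 48.5 ± 2.12 kb (SD, n = 2), and 30.4% of 7263 tiles passed. In KO cells it rose by 0.325 ± 0.074 (limma, adjusted p = 0.02638), from 42.3 ± 0.14 to 50.4 ± 0.28 kb (SD, n = 2), where 17.3% of tiles passed. That call was lost without early KO replicate 1 (adjusted p = 0.09421), early KO replicate 2 (0.1446) or late KO replicate 2 (0.1236). The shares of tiles here and below count calls in either direction, and such calls were common among tiles of both lengths. By direction, 5.9% of tiles had a lower change than the Bcl6 window in WT and 12.4% in KO. For the Prdm1 window 77.6% and 79.9% of tiles had a lower change.

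KO and WT differed less over the windows as a whole. Late KO exceeded late WT at Bcl6 by 0.333 ± 0.091, which missed the threshold (limma, adjusted p = 0.05731), and 12.1% of tiles passed. With a replicate block it passed (adjusted p = 0.04953, limma), though deviations of same-numbered libraries hardly correlated. Whether those libraries were made as pairs is unknown. The early KO difference there was -0.087 ± 0.091 (adjusted p = 0.5109), with 32.4% of tiles passing. The late KO effect less the early one was 0.42 ± 0.129 (adjusted p = 0.08015), with 11.6% passing.

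At Prdm1 the KO differences were 0.084 ± 0.074 early (limma, adjusted p = 0.4544) and -0.008 ± 0.074 late (adjusted p = 0.9729), while 27.3% and 9.68% of tiles passed. The difference between these effects was -0.092 ± 0.104 (adjusted p = 0.6496), with 8.72% passing. The early difference in kb noted above, 37.2 against 42.3 kb, was not called with centring or without it (adjusted p = 0.05715).

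The leading H3K27ac region of the Bcl6 window hardly entered into the loss there. The leading Bcl6 region covered 11.2 and 10.6 kb in early WT, 12.2 and 12.2 in early KO, 10.2 and 10.6 in late WT, and 11.6 and 11.0 kb in late KO. Its score lay between the 98.3 and 99.6 percentiles of every list. All of the rest of the window together covered 29.0 ± 0.0 kb in early WT, 28.5 ± 1.84 in early KO, 10.5 ± 2.12 in late WT and, in late KO, 16.1 ± 0.99 kb (SD, n = 2). The shorter coverage of late cells was therefore in islands at a distance, as the map of Bcl6 islands shows.

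**Figure D2:**
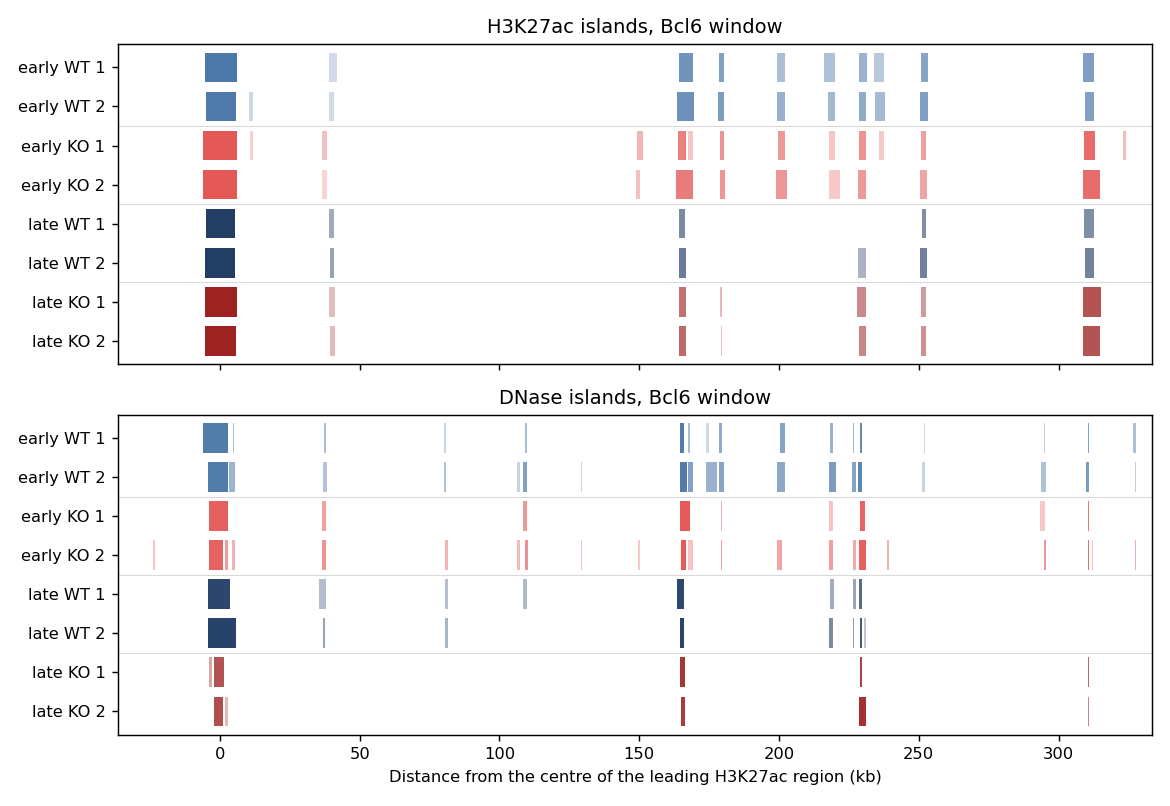
Islands of every library in the Bcl6 window, H3K27ac above and DNase below, drawn to scale against distance (kb) from the centre of the leading H3K27ac region, with darker shades for higher score percentiles within a list. The block at 0 is in all 8 H3K27ac lists, and the islands at +200.8 and +218.9 kb are in all 4 early and no late lists.

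Between +150 and +255 kb, on the Lpp side of Bcl6, lay a chain of H3K27ac regions with most of the changes. The strongest was at +166.4 kb (chr16:24149601-24156000), which covered 4.8 and 6.2 kb in early WT, 5.0 and 6.2 in early KO, 2.0 and 2.2 in late WT, and 2.4 and 2.2 kb in late KO. It stayed in all 8 lists while all 4 late lists held a shorter stretch than any early list. Of 18384 H3K27ac regions found in all 8 libraries, 4.81% were separated in this direction and 4.93% in the other, late longer than early. Of the 4 regions of the Bcl6 window in all 8 lists, this was the 1 separated in either direction.

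The next regions were lost altogether from late WT lists. The region at +200.8 kb (chr16:24185201-24189200) covered 2.8 and 2.8 kb in early WT and 2.4 and 4.0 kb in early KO, and was in no late list. The region at +218.9 kb (chr16:24202401-24208200) covered 4.0 and 2.6 kb in early WT and 2.4 and 3.8 kb in early KO, again with no late island. These 2 of 14 regions were early alone in both genotypes, a pattern shown by 1.28% of 35909 regions over the genome. Their islands all ranked below the 50 percentile of their lists, at 30.1 to 49.9 at +200.8 kb and 10.3 to 36.2 at +218.9 kb. Early alone within WT held for 4 of the 14 (4.76% of all regions) and within KO also for 4 (5.88%). Whether these counts hold under the alternative settings was not tested.

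Tested as 10-kb bins of the whole genome with the same limma model, 14 of the 37 bins of the Bcl6 window had enough coverage, and 5 of them fell from early to late WT while 0 rose. Over all 39126 bins tested, 6.77% fell and 9.54% rose. The bin at +198.6 kb (chr16:24180001-24190000) went from 2.8 ± 0.0 kb to 0 in both late WT lists (limma, adjusted p = 0.0006512), and the bin at +218.6 kb (chr16:24200001-24210000) from 3.3 ± 0.99 kb to 0 (adjusted p = 0.0008621). The call at +218.6 kb was lost in 1 of the 5 alternatives that tested it (adjusted p = 0.07788, limma). The bin at +238.6 kb (chr16:24220001-24230000) went from 3.7 ± 0.14 kb to 0 (adjusted p = 0.02672), but in 6 of the 8 fits with a library left out its adjusted p was above 0.05, reaching 0.1138. The other falling bins were those at +168.6 kb (chr16:24150001-24160000, log2 -1.13, adjusted p = 0.002706) and +178.6 kb. For a group listed at 0 the kb are given here in place of a fold.

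In KO cells 4 bins fell and 0 rose from early to late, against 4.95% and 4.65% of all bins. The bins at +198.6 kb (adjusted p = 0.0008943, limma) and +218.6 kb (adjusted p = 0.001459) were among them, and so was that at +168.6 kb (log2 -1.03, adjusted p = 0.00626). The KO call at +218.6 kb was lost in 1 of 5 alternatives (adjusted p = 0.4413, limma), and its early KO islands ranked at the 11.3 and 10.3 percentiles. The remaining bin, at +148.6 kb (adjusted p = 0.001789, limma), held islands in early KO alone, so its fall was not shared with WT. The median of the 14 bins was -0.416 in WT and -0.324 in KO on the log2 scale, beside 0.042 for all bins in both comparisons. These comparisons used different libraries, WT only and KO only, but a fit with 1 shared spread.

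Late KO lists kept some of the Bcl6 acetylation that late WT lists lacked. The region at +179.4 kb (chr16:24164601-24167000) covered 2.0 and 2.2 kb in early WT, 1.4 and 1.6 in early KO, 0 in both late WT lists, and 0.8 and 0.6 kb in late KO. Its bin at +178.6 kb (chr16:24160001-24170000) fell in WT (limma, adjusted p = 0.0003851) and was higher in late KO, with 0.7 ± 0.14 kb (SD, n = 2), than in late WT, with 0 (adjusted p = 0.007124). In late KO the islands ranked low, at the 7.9 and 3.0 percentiles of their lists. The late call was lost in 3 alternatives: the upper 50% of each list by score (adjusted p = 0.9956, limma), lists cut to equal length (0.5504) and a pseudocount of 2 kb (0.0502).

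The nearby region at +229.6 kb covered 2.6 and 2.4 kb in early WT, 2.6 and 2.6 in early KO, 0 and 2.8 in late WT, and 3.4 and 2.6 kb in late KO. Here 1 late WT library alone lacked the island, so the late groups overlapped. The region at +251.9 kb was in all 8 lists with 1.6 to 2.6 kb.

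At the far end, the region at +311.9 kb (chr16:24295001-24301600) reached further in KO lists. It covered 4.0 and 3.2 kb in early WT, 4.0 and 6.2 in early KO, 3.6 and 3.2 in late WT, and 6.4 and 6.4 kb in late KO. Its upper edge was at 312.6 kb in all 4 WT lists, at 313.0 and 314.8 kb in early KO, and at 315.2 and 315.0 kb in late KO. The edge thus reached further in every KO list than in any WT list, by little in early KO replicate 1. By covered length KO and WT were not separated, since early KO replicate 1 and early WT replicate 1 both covered 4.0 kb. The share of all regions whose edges separate in this way was not counted. Its score percentile was 61.8 and 60.0 in early WT, 83.1 and 83.2 in early KO, 42.5 and 51.2 in late WT, and 69.8 and 69.8 in late KO, though ranks from lists of unequal length are only descriptions.

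The bin at +318.6 kb (chr16:24300001-24310000) holds the extension of that region. It was listed at 0 in all 4 WT libraries and held 0.6 and 1.2 kb in early KO and 1.6 and 1.4 kb in late KO, higher than WT both early (limma, adjusted p = 0.008471) and late (adjusted p = 0.00382). With the upper 50% of each list by score both calls were lost (adjusted p = 0.4881 and 0.1633), while the other 5 alternatives of the fit kept them. In early KO replicate 1 the 0.6 kb belonged to a separate island at +323.6 kb, found in that list alone.

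A further bin, at +148.6 kb (chr16:24130001-24140000), held 2.0 and 1.4 kb in early KO and 0 in the other 6 libraries (limma, adjusted p = 0.001243 for early KO against WT). It holds the region at +150.1 kb, whose islands stood at the 25.6 and 16.7 percentiles of the early KO lists. Like the region at +37.4 kb (chr16:24022801-24024800), with 1.8 and 1.8 kb in early KO and 0 elsewhere, it was found in early KO alone. Such regions, in both early KO and neither early WT list, made up 2 of 14 here and 9.36% over the genome, and 1 with lists cut to equal length or 0 with their upper 50% by score.

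Close by, the region at +40.4 kb (chr16:24025401-24028200) showed the opposite: 2.8 and 1.6 kb in early WT, 0 in early KO, 1.8 and 1.6 in late WT, and 2.0 and 1.8 kb in late KO. Early WT and early KO thus each had an island in this stretch, side by side. A DNase region at +37.0 kb (chr16:24022001-24024800) overlapped the KO one, with 0.6 and 1.6 kb in early WT, 1.4 and 1.2 in early KO, 2.2 and 0.8 in late WT and neither late KO list. All of these acetylated islands ranked low, at or below the 28.8 percentile of their lists.

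In all, 2 bins of the Bcl6 window were higher in early KO than in early WT and 0 lower, beside 9.17% higher and 5.43% lower of all bins. Late KO against late WT also gave 2 higher and 0 lower, beside 3.99% and 2.76%. The KO effect differed between the stages in 2 bins, with +178.6 kb larger late and +148.6 kb larger early, and over the genome 3.95% and 6.18% of bins passed in these directions. Among the 14 regions, 1 was in WT alone early (3.79% over the genome), 1 in KO alone late (4.71%), 0 in WT alone late (3.37%), 0 late alone in WT (8.31%) and 1 late alone in KO (3.93%).

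**Figure D3:**
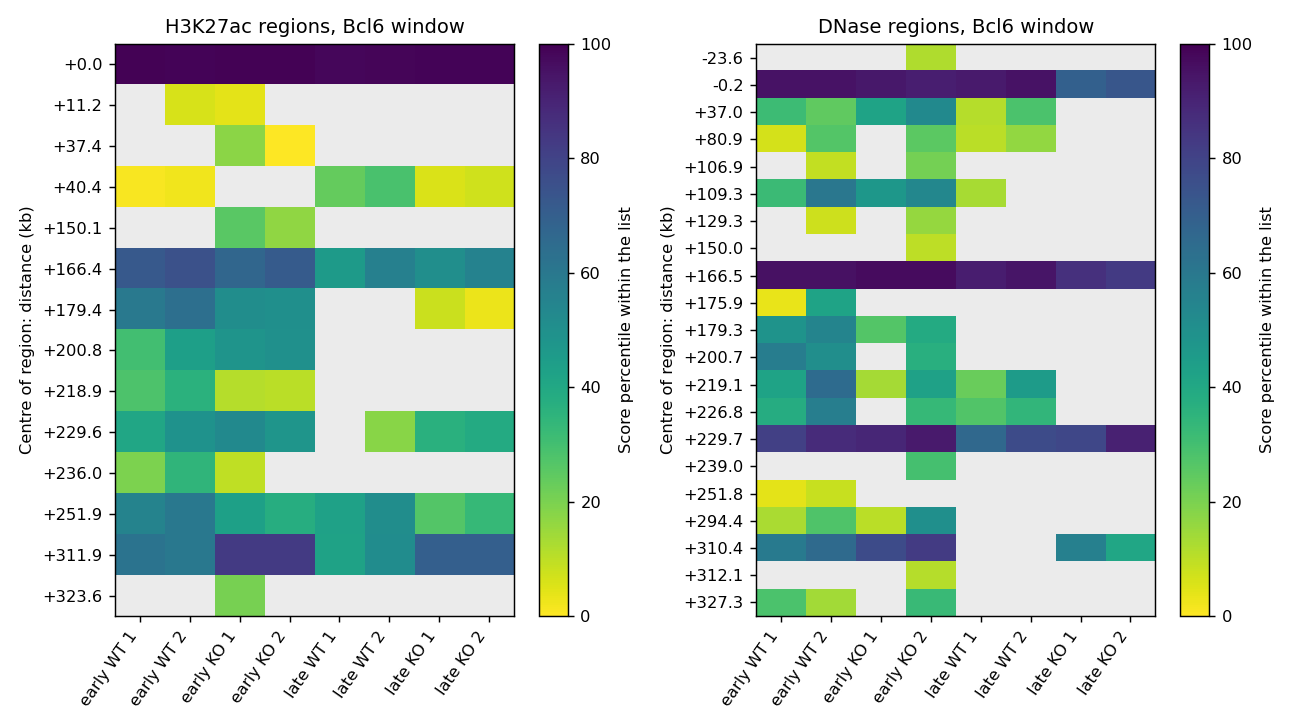
Score percentile within its own list (colour, 0 to 100) for each H3K27ac (left) and DNase (right) region of the Bcl6 window, by distance in kb (rows) and library (columns), with grey for no island. The leading H3K27ac region is above the 98 percentile in every column, while rows from +179.4 to +236.0 kb are partly or wholly grey in the late columns.

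The Prdm1 window had fewer and longer H3K27ac regions, 7 in all, and 0 of them were found in both lists of 1 group and neither of another. The leading region (chr10:44159401-44181200) covered 17.2 and 17.0 kb in early WT, 20.2 and 20.2 in early KO, 19.0 and 17.8 in late WT, and 21.4 and 21.2 kb in late KO. All 4 KO lists held a longer stretch than any WT list. Of regions found in all 8 libraries, 3.91% were separated in this way and 2.07% with WT longer than KO.

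The difference was on the lower-coordinate side, which is downstream for a minus-strand gene. There the region began at -7.7 and -7.5 kb in early WT and -8.1 and -7.5 kb in late WT, but at -10.5 and -9.7 kb in early KO and -10.9 and -10.9 kb in late KO. The upper edge was between 10.3 and 10.9 kb in all 8 lists. The bin at -5.3 kb (chr10:44160001-44170000), which holds most of that stretch, was covered over 7.4 and 7.2 kb in early WT, 10 and 9.4 in early KO, 7.8 and 7.2 in late WT, and 10 and 10 kb in late KO. A 10-kb bin can hold no more than its length, and 3 of the 4 KO lists filled it. The fit gave 0.35 ± 0.09 for KO against WT at both stages, with adjusted p-values just over the threshold early (limma, 0.05352) and further from it late (0.091).

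Beside the leading region, acetylation spread in late cells at -17.8 kb (chr10:44146201-44158800), a region that covered 8.2 and 8.0 kb in early WT, 8.0 and 10.4 in early KO, 11.6 and 11.6 in late WT, and 12.2 and 11.8 kb in late KO. The region at -30.8 kb (chr10:44133401-44145600) covered 7.2 and 3.6 kb in early WT, 6.4 and 3.2 in early KO, 10.8 and 8.0 in late WT, and 7.4 and 7.8 kb in late KO. In both, every late list exceeded every early list, as the map of Prdm1 islands shows. At -30.8 kb the margin was small, 7.4 kb in late KO replicate 1 against 7.2 kb in early WT replicate 1. These were 2 of the 4 Prdm1 regions in all 8 lists. Of all 18384 such H3K27ac regions, 4.93% were separated in this direction and 4.81% in the other.

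**Figure D4:**
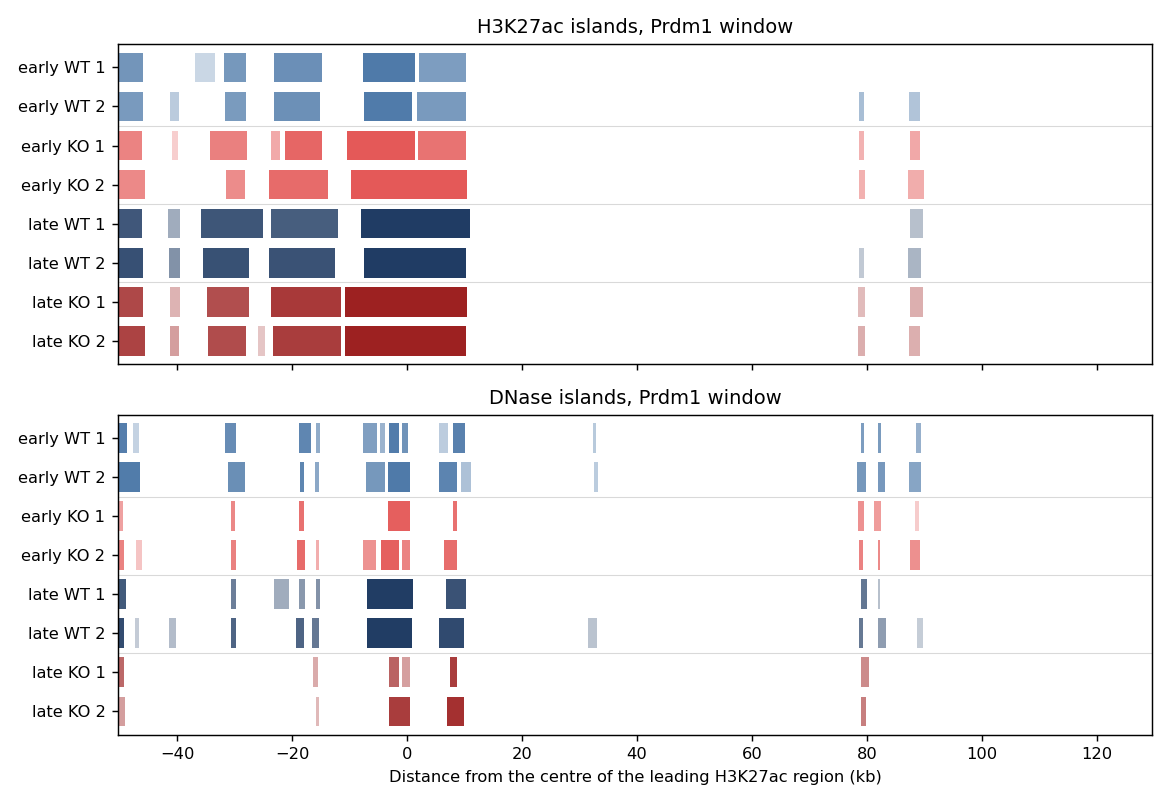
Islands of every library in the Prdm1 window, H3K27ac above and DNase below, drawn to scale against distance (kb) from the centre of the leading H3K27ac region, with darker shades for higher score percentiles within a list. The lower edge of the leading H3K27ac region lies at -9.7 kb or beyond in the KO rows and at -8.1 kb or nearer in the WT rows, and late KO rows lack the DNase islands at -30.0, -18.0 and +82.3 kb.

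Of the 18 bins of the Prdm1 window 9 were tested, and all 9 had values above 0 from early to late in WT and in KO. The share of all bins above 0 was not counted, and their median was 0.042 in both comparisons. The bin at -15.3 kb (chr10:44150001-44160000) went from 5.3 ± 0.14 to 8.0 ± 0.28 kb in WT (SD, n = 2), a log2 rise of 0.59 ± 0.09 (limma, adjusted p = 0.005997). In KO it went from 6.1 ± 0.71 to 9.4 ± 0.0 kb, a rise of 0.63 ± 0.09 (adjusted p = 0.006948). The bin at -25.3 kb (chr10:44140001-44150000) rose in WT from 5.0 ± 0.0 to 7.6 ± 1.41 kb, by 0.59 ± 0.12 (adjusted p = 0.02522). These were the 2 bins called in WT and the 1 called in KO. Over all 39126 bins, 9.54% were called higher in WT and 4.65% in KO.

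Each of these calls depended on single libraries. The WT change at -15.3 kb was lost without early WT replicate 2 (adjusted p = 0.05444) or late WT replicate 1 (0.05852), and that at -25.3 kb without early WT replicate 1 (0.1526), early WT replicate 2 (0.1059) or late WT replicate 1 (0.1431). The KO change was lost without early KO replicate 1 (0.07327) or late KO replicate 2 (0.08786). For KO against WT, 0 bins were called at either stage by limma, with 1 at each at an unadjusted p under 0.05, the bin at -5.3 kb. For the difference between the stages 0 were called and 0 had such a p. The share of all bins at such an unadjusted p was not counted.

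The remaining acetylated regions of the Prdm1 window differed less. The region at -49.2 kb, which crosses the edge of the window, covered 5.6 to 6.8 kb in all lists, and those at -40.6, +79.1 and +88.5 kb covered at most 2.8 kb and were missing from 1 or 2 lists each. The median of the 9 bins was 0.356 from early to late in WT and 0.249 in KO, beside 0.042 over all bins. All 7 H3K27ac regions overlapped a DNase region, as did 10 of 14 at Bcl6, against 79.0% of all H3K27ac regions.

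At Prdm1 10 of 12 DNase regions overlapped an H3K27ac region, and at Bcl6 11 of 21, beside 73.7% of all DNase regions. The 10 Bcl6 DNase regions without acetylation included those at +80.9, +109.3 and +226.8 kb, each in 5 lists, and +294.4 kb in 4. In length, the DNase islands of the windows covered least in the late KO libraries, whose lists were also the shortest. In the Bcl6 window they covered 21.8 and 37.6 kb in early WT, 18.8 and 27 in early KO, 19.2 and 16.6 in late WT, and 8.0 and 8.8 kb in late KO. In the Prdm1 window they covered 20.0 and 26.0 kb, 10.2 and 16.6 kb, 20.2 and 23.2 kb, and 7.4 and 9.4 kb in the same order. Late KO was the lowest group in both windows, and its whole lists covered 25.9 and 26.2 Mb against 44.7 and 52.4 Mb in late WT. How much of the difference in the windows follows from the lists was not tested beyond the centred fit. In 10-kb bins, centring removed a log2 shift of -0.356 between late KO and late WT and of -0.253 between early KO and early WT. Tiles of the windows' lengths were centred separately. There the late KO difference at Prdm1 was -1.325 without centring and -0.484 with it. The early KO difference at Bcl6 was -0.339 without centring and 0.139 with it.

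After centring, the KO differences in DNase were not called in either window. At Bcl6 they were 0.139 ± 0.196 early (limma, adjusted p = 0.8453) and -0.152 ± 0.196 late (adjusted p = 0.6839), with 0.207% and 4.25% of tiles called. At Prdm1 they were -0.345 ± 0.177 (adjusted p = 0.5736) and -0.484 ± 0.177 (adjusted p = 0.1686), with 0.133% and 3.5% called. The differences between the stages were -0.291 ± 0.277 at Bcl6 (adjusted p = 0.7624) and -0.139 ± 0.251 at Prdm1 (adjusted p = 0.8753), with 0.0% and 0.0663% of tiles called.

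With time, the Bcl6 window changed by -0.468 ± 0.196 in WT (limma, adjusted p = 0.3799, 0.39% of tiles called) and fell by 0.759 ± 0.196 in KO (adjusted p = 0.04555, 6.09% called), a call lost in 7 of the 8 fits with a library left out. Without centring it was -1.374 (adjusted p = 0.05695), and with lists cut to equal length -0.421 (adjusted p = 0.467). The Prdm1 window gave 0.093 ± 0.177 in WT (adjusted p = 0.9181, 0.172% called) and -0.046 ± 0.177 in KO (adjusted p = 0.904, 3.78% called).

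The highest ranking DNase region at Bcl6 was not the one at the leading acetylated region but that at +166.5 kb (chr16:24150001-24155800). It stood between the 82.9 and 97.2 percentiles in all 8 lists, and covered 2.0 and 4.2 kb in early WT, 3.4 and 3.4 in early KO, 2.6 and 1.6 in late WT, and 1.8 and 1.6 kb in late KO. It lies within the acetylated region at +166.4 kb that shortened with time. The DNase region at -0.2 kb (chr16:23980401-23992000) covered 9.2 and 9.2 kb in early WT, 6.8 and 7.0 in early KO, 8.0 and 10 in late WT, and 5.0 and 4.2 kb in late KO.

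That region was longer in all 4 WT lists than in any KO list, and so was the Prdm1 region at +8.3 kb (chr10:44175801-44181400), with 3.8 and 5.0 kb in early WT, 0.8 and 2.2 in early KO, 3.6 and 4.4 in late WT, and 1.2 and 3.0 kb in late KO. Of 13100 DNase regions found in all 8 libraries, 6.8% had this pattern and 0.115% the reverse. Early lists were all longer in 1.06% and late lists all longer in 0.534%, and no region of either window had those patterns. At Prdm1 the leading H3K27ac region was longer in KO while the DNase region at +8.3 kb, which overlaps its upper end, was shorter.

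The strongest Prdm1 DNase region, at -3.3 kb (chr10:44162601-44171400), covered 5.8 and 7.0 kb in early WT, 3.8 and 6.6 in early KO, 8.0 and 7.8 in late WT, and 3.0 and 3.6 kb in late KO. Late WT and late KO did not overlap, and early WT and early KO did. The region at -49.0 kb (chr10:44118401-44124200, partly outside the window) covered 4.0 and 5.4 kb in early WT, 1.0 and 2.4 in early KO, 2.0 and 2.8 in late WT, and 1.6 and 1.4 kb in late KO. Early WT lay above all other libraries there. The share of all DNase regions separated in either of these ways was not counted, and the late KO lists were the shortest.

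Late KO lists lacked 3 Prdm1 DNase regions that all 6 other lists held, at -30.0 kb (chr10:44138601-44142000), -18.0 kb (chr10:44151001-44153600) and +82.3 kb (chr10:44251601-44253600). The first covered 2.0 and 2.8 kb in early WT, 0.8 and 1.0 in early KO and 1.0 and 1.0 kb in late WT. The second covered 2.2 and 0.8 kb, 1.0 and 1.4 kb, and 1.2 and 1.4 kb in the same groups, and its islands in early KO stood at the 79.1 and 84.2 percentiles. Acetylation at -17.8 kb, which spans the second, was at its widest in late KO.

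Such regions, in both late WT and neither late KO list, made up 3 of 12 DNase regions at Prdm1, 4 of 21 at Bcl6 and 16.3% over the genome. With lists cut to equal length the counts were 2 at Prdm1 and 0 at Bcl6. At Bcl6 they lay at +37.0, +80.9, +219.1 and +226.8 kb. The acetylated region at +218.9 kb, over that at +219.1 kb, was absent from late WT as well, while the DNase region covered 1.4 and 1.2 kb in late WT. Accessible sites and acetylation at this place thus differed in late WT lists.

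The site at +310.4 kb (chr16:24296201-24297400) went against the short late KO lists. It covered 0.6 and 1.2 kb in early WT, 0.6 and 0.4 in early KO, 0 in both late WT lists, and 0.4 and 0.6 kb in late KO. It was the 1 Bcl6 region in KO alone late, a pattern of 0.721% of 47976 DNase regions, and 0 of the 12 at Prdm1 had it. It lies within the acetylated region at +311.9 kb, which was longest in late KO. With lists cut to equal length it kept this pattern, and with the upper 50% of each list by score it did not. The bin that holds it, at +308.6 kb, was not called (limma, adjusted p = 0.1199).

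The other patterns of DNase regions at Bcl6 and Prdm1 were counted in the same way. Early alone in WT held for 7 of 21 and 0 of 12 (8.31% over the genome), early alone in KO for 5 and 4 (11.6%), and early alone in both genotypes for 2 and 0 (1.12%). WT alone early held for 2 and 1 (8.71%), KO alone early for 0 and 0 (1.86%), and late alone for 0 and 0 in WT (2.01%) and in KO (0.369%). The 2 Bcl6 regions early in both genotypes were at +179.3 and +294.4 kb, the former within the acetylated region at +179.4 kb.

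By 10-kb bins, 15 of 37 were tested at Bcl6 and 10 of 18 at Prdm1 for DNase. From early to late WT 2 Bcl6 bins fell and 0 rose, beside 2.12% and 0.593% of 37586 bins. The bin at +178.6 kb (chr16:24160001-24170000) held 2.2 and 5.6 kb in early WT, 0.4 and 0.4 in early KO and 0 in late lists (limma, adjusted p = 0.03174). The bin at +248.6 kb (chr16:24230001-24240000) held 0.6 and 1.2 kb in early WT and 0 elsewhere (adjusted p = 0.03704). Both calls were lost with single libraries left out, in 6 of 8 and 4 of 6 fits, to adjusted p-values of up to 0.4131 and 0.2078.

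All other DNase comparisons had 0 called bins in both windows by limma. At an unadjusted p under 0.05 the Bcl6 window had 2 for early KO, 4 for late KO, 4 for late against early KO and 4 for the difference between stages, and the Prdm1 window had 1, 2, 1 and 0, with 0 for late against early WT. The share of all bins at such an unadjusted p was not counted, so these counts have no background here. For called bins, at an adjusted p under 0.05, the genome shares were 0.54% higher and 0.689% lower for early KO. They were 0.343% and 1.81% for late KO, 0.197% and 2.25% for late against early KO, and 0.0% and 0.0% for the difference between stages. The DNase medians over bins at Prdm1 were -0.495 for early KO and -0.586 for late KO, beside -0.086 and -0.171 over all bins. At Bcl6 they were -0.084 and 0.141.

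As a description, the genome tile whose H3K27ac coverage most resembled that of the Bcl6 window over the 8 libraries was chr8:59940001-60310000 (Pearson r = 0.993 on log2 values), followed by chr7:129500001-129870000 (r = 0.985) and chr18:46990001-47360000 (r = 0.983). For the Prdm1 window these were chr12:86940001-87120000 (r = 0.988), chr18:73620001-73800000 (r = 0.984) and chr18:24300001-24480000 (r = 0.983). For DNase the 3 tiles most like Bcl6 were chr18:68820001-69190000 (r = 0.974), chr13:29230001-29600000 (r = 0.973) and chr6:31450001-31820000 (r = 0.959). Those most like Prdm1 were chr19:54000001-54180000 (r = 0.964), chr11:75060001-75240000 (r = 0.963) and chr14:74160001-74340000 (r = 0.955). With 8 libraries in 4 groups and 4281 to 7546 tiles compared, high values of r arise readily, and the tiles share the libraries and their list lengths.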

How the data were processed

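H3K27ac ChIP-seq and DNase-seq were made from 16 libraries, 2 for each of 4 groups and 2 assays. Per the submitters' processing notes, the tools were CASAVA 2.18, Bowtie2 and SICER 1.1, with mm9 as the build. The authors deposited, for each library, a list of islands with a position and a score, the caller's own value. Scores served for ranks within a list and for a filter on it. The lists give no counts, so no interval for depth can be had. Islands were called per library, and the first and last base of each were taken as listed.

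Groups were taken from the labels. The kb covered by islands were computed in 10-kb bins and in tiles of the length of each window. Features covered in at least 2 of 8 libraries entered limma 3.58.1 (lmFit, eBayes with a trend) on log2(kb + 0.5), each library centred on the median of features covered in all 8, with all 4 groups sharing 1 spread. Benjamini-Hochberg adjustment ran over all features, and those with an adjusted p under 0.05 were called. Where both lists of a group held 0 in a bin, that group's spread was set by the pseudocount and the centring, and the p rests on the other groups. The fit was tested on simulated data. Named bins were the 3 with the largest change in each direction among those called in a comparison. Named regions were the 5 of highest mean score percentile per window and assay and those showing a genotype or stage pattern, the 3 highest ranked in full. Other bins and regions were chosen after their values were seen. The members, windows and lists were chosen with earlier results of these data known.

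Promoters and gene order came from RefSeq (GRCm38.p6). No genome or annotation of mm9 was used, coordinates were not converted, and the planned lists of marker and pathway genes were not analysed. Alternatives were no centring, lists cut to equal length, the upper 50% of a list, a pseudocount of 2 kb, 5-kb bins, no filter, a minimum of 50% of a region covered, a replicate block and each library left out. Scripts ran in Python 3.11.15 (numpy 2.4.6, pandas 2.3.3, scipy 1.17.1, matplotlib 3.10.9) and R 4.3.3.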

Additional observations from a re-analysis of the deposited data

Results flagged for a closer look

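The KO effect on H3K27ac differed between the stages at 2 bins of the Bcl6 window, by the interaction term of the limma fit. At +148.6 kb the late KO effect less the early one was -2.124 ± 0.299 on the log2(kb + 0.5) scale (adjusted p = 0.007641, Benjamini-Hochberg), with islands in both early KO libraries (2.0 and 1.4 kb) and in no other list. At +178.6 kb it was 1.637 ± 0.229 (adjusted p = 0.007556), where late KO held 0.8 and 0.6 kb and late WT 0, while early KO (1.4 and 1.6 kb) was below early WT (2.0 and 2.2 kb). Both sizes are set by the pseudocount, since a group is listed at 0. With a pseudocount of 2 kb they were -0.883 and 0.66 (adjusted p = 0.02685 and 0.02601). The call at +178.6 kb was lost with lists cut to equal length (0.986, adjusted p = 0.4375) and with their upper 50% by score (0.379, adjusted p = 0.4389), and the islands at +148.6 kb ranked below that upper 50%, so the bin was not tested there.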

How the results depend on the processing

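The lower H3K27ac of the Bcl6 window in late WT kept its direction and call under every alternative run, with -1.005 to -0.791 when a library was left out. Called bins of H3K27ac at Bcl6 under the upper 50% by score came to 0 for early KO, 0 for late KO, 1 for late against early WT, 1 for late against early KO and 0 for the difference between stages. For late KO there was 1 with equal lists, 1 with a pseudocount of 2 kb and 1 with 5-kb bins, and for late against early KO 2 with equal lists. At Prdm1 there was 1 for early KO without centring, with equal lists, the upper 50%, a pseudocount of 2 kb and 5-kb bins, 1 for late KO without centring and with 5-kb bins, and 1 for late against early WT without centring and with the upper 50%. For DNase at Bcl6 there was 1 for early KO without centring, with the upper 50% and with 5-kb bins, 1 for late KO without centring, and 1 for the difference between stages with the upper 50%. Late against early WT gave 0 with equal lists, with a pseudocount of 2 kb and with no filter, and 1 with the upper 50%. At Prdm1 late KO gave 1 with equal lists.

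Window coverage in log2 changed sign or call as follows, and the cause was not tested. Without centring, H3K27ac gave 0.028 for early KO at Bcl6 and 0.056 for late KO at Prdm1, and DNase gave -0.339 for early KO and -1.374 for late against early KO at Bcl6, and -1.325 for late KO (adjusted p = 0.04237, limma) and -0.074 for late against early WT at Prdm1. With equal lists, H3K27ac at Bcl6 gave -0.378 for late against early KO, and DNase at Bcl6 gave -0.122 for early KO and -0.421 for late against early KO. With the upper 50%, late against early KO gave -0.256 at Bcl6 and 0.288 at Prdm1 for H3K27ac, and DNase at Bcl6 gave 0.278 for late KO, -0.112 for late against early KO and 0.271 for the difference between stages. The late KO difference at +178.6 kb was -0.038 with the upper 50%.

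Deviations of same-numbered libraries correlated at -0.024 and 0.052 (H3K27ac, early and late) and 0.043 and -0.001 (DNase). Such values cannot show whether the libraries were made as pairs. With the replicate block, late KO against late WT at Bcl6 was 0.333 (adjusted p = 0.04953, limma), DNase late against early KO at Bcl6 was -0.759 (adjusted p = 0.05792), called bins for late against early WT were 1 at Prdm1 (H3K27ac) and 0 at Bcl6 (DNase).

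With each library left out, called H3K27ac bins ran from 1 to 3 for the difference between stages at Bcl6, and at Prdm1 from 0 to 1 for early KO, late KO, late against early KO and the difference between stages, and from 0 to 2 for late against early WT. Without late WT replicate 1 that last count was 0. DNase bins at Bcl6 ran from 0 to 3 for late against early WT. Window coverage ran from -0.516 to -0.455 (H3K27ac, Bcl6, late against early KO), -0.079 to 0.063 (H3K27ac, Prdm1, late KO), 0.268 to 0.41 (H3K27ac, Prdm1, late against early KO), -0.372 to 0.093 (DNase, Bcl6, late KO), -0.839 to -0.642 (DNase, Bcl6, late against early KO) and -0.185 to 0.064 (DNase, Prdm1, late against early KO). Region counts moved too. With the upper 50%, WT alone late for DNase was 0 at Bcl6 and 2 at Prdm1, and WT alone early was 1 and 0. With equal lists, WT alone early for DNase was 0 in both windows. With at least 50% of a region covered, WT alone early for DNase was 4 at Prdm1, WT alone late was 2 at Bcl6 and 1 at Prdm1, and KO alone late was 0 at Bcl6 for both assays. Depth is unknown, so an absent island sets no limit on signal.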
